A study of Mus musculus with 4 samples.

Results

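The genes described here encode parts of the motile cilium: the dynein arms, radial spokes, central apparatus, tektins and cilia and flagella associated proteins (CFAPs) of its axoneme, and the intraflagellar transport (IFT) particles that build it. They were chosen by gene symbol, as every row named Dnah, Dnaic, Dnali, Cfap, Ift, Rsph, Tekt or Spag with a number or suffix, together with Foxj1, that had at least 40 counts summed over the 4 libraries. Of 25759 gene symbols in the count table, 84 fitted the names and 78 reached the count. Gene names and this count minimum therefore set the membership, and a symbol with such a name need not act in motile cilia. Rsph6a, Spag11a and Spag11b had no count, and just outside the minimum stood Dnah14 with 3 counts in all, Spag6 with 7 and Spag4 with 8. Just inside it were Tekt5 with 57 counts, Tekt3 with 81 and Dnah8 with 91.

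RNA was sequenced from alveolar epithelial type II cells of C57BL/6 mice aged 14 weeks. In the mTOR Tg group (2 libraries) the genotype is labelled as Sftpc-mTOR transgenic, and the design text calls the mice conditional transgenics with active mTOR; Sftpc is the surfactant protein C gene, whose promoter is used to direct transgenes to the distal lung epithelium. The WT group (2 libraries) is labelled wild type and shares the strain, age and cell type. Whether a library came from 1 mouse or from a pool, the agent that switched the transgene on, the sex of the mice and how the cells were isolated are not stated in the labels. P-values below therefore describe only how far these samples spread, which may be technical.

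Motile cilia of the airway are carried by multiciliated cells, which sweep mucus along the epithelium; type II cells of the alveolus make surfactant and do not carry them. FOXJ1 and the RFX factors are the transcription factors that switch on axoneme genes in cells that become multiciliated. Within the axoneme, outer and inner dynein arms drive the sliding of microtubule doublets, while radial spokes and the central apparatus control the beat. IFT-B carries cargo to the ciliary tip with kinesin, and IFT-A returns it with dynein. IFT particles also build the primary cilium of many other cell types, so these genes are less specific than the axonemal ones.

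RFX factors bind the X-box, a pair of short arms that mirror each other, so the promoters of the genes were searched for it and the matches are shown first. RefSeq promoters (GRCm38.p6, the 300 bases that run from 250 before to 50 after the start) were found for 63 of the 78 genes. The search took the arm GTTGCC, 0 to 3 bases, and the reverse complement of the arm, on both strands, with up to 1 mismatch in each arm. It was found in 18 of the 63 promoters (28.6%), against 1134 of 27025 RefSeq promoters (4.196%) and 5.47% of the promoters of genes tested for expression. Where a promoter held several matches, the one with the fewest mismatches, and then the one nearest the start, was taken. The first base lay at a median of 33 bases before the start, and within 100 bases before it in 16 of the 18. These positions may partly follow from that choice, and those in other promoters were not measured. Capitals mark the arms, and the lower-case letters are the bases between them.
Tekt2 (chr4:126325705-126325717, - strand): GTTGCTcGGCAAC
Tekt4 (chr17:25471554-25471566, + strand): GTTGCTcAGCAAC
Rsph3b (chr17:6948335-6948347, - strand): GTTGCTcGGCAAC
Dnaic2 (chr11:114727386-114727398, + strand): GTTGCTaGGCAAC
Dnaic1 (chr4:41569775-41569787, + strand): GTTGCTgGGTAAC
Dnah9 (chr11:66168621-66168633, - strand): GTTTCCcAGCAAC
Dnah6 (chr6:73221655-73221667, - strand): GTTGCTaAGCAAC
Dnah7a (chr1:53706829-53706841, - strand): GTTGCTtAGCAAC
Dnah7b (chr1:46066829-46066841, + strand): GTTGCTtAGCAAC
Dnah7c (chr1:46425449-46425461, + strand): GTTGCTtAGCAAC
Cfap44 (chr16:44394772-44394785, + strand): GTTGCTatGGCAAC
Cfap45 (chr1:172521111-172521124, + strand): GTTGCTatGGTAAC
Cfap58 (chr19:47937653-47937665, + strand): GTTGCCaGGCGAC
Cfap61 (chr2:145934776-145934789, + strand): GTTTCCttAGCAAC
Cfap221 (chr1:119997227-119997240, - strand): GTTGTCatGGCGAC
Ift57 (chr16:49699234-49699246, + strand): GTTGCCtGGTAAC
Ift22 (chr5:136908117-136908130, + strand): GTCGCCgtGGAAAC
Spag6l (chr16:16829527-16829538, - strand): GGTGCCCGCAAC

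Of these matches, 12 had 1 base between the arms and 5 had 2 bases, and 6 had 1 mismatch in all while 12 had 2. The 3 Dnah7 copies share 1 sequence. The arm GTTGCC or its complement GGCAAC alone, which also lies within the 6 matches with 1 mismatch, was in 24 of the 63 promoters (38.1%), against 12.7% of RefSeq promoters. The forkhead motif GTAAACA or TGTTTAC was in 4 of the 63 (6.35%), against 3.55%. A match is a description of the letters and was not tested as a site of binding. Whole promoters are given for Rsph3b, among the genes with the smallest p of those higher in mTOR Tg, and Cfap44, among those lower, with each arm and X-box in capitals.
Rsph3b (chr17:6948307-6948606, - strand): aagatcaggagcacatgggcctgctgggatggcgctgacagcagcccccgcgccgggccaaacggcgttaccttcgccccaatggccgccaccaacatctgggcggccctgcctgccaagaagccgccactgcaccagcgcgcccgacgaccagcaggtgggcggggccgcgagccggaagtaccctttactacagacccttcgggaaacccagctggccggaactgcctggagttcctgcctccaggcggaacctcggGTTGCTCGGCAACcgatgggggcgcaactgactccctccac
Cfap44 (chr16:44394549-44394848, + strand): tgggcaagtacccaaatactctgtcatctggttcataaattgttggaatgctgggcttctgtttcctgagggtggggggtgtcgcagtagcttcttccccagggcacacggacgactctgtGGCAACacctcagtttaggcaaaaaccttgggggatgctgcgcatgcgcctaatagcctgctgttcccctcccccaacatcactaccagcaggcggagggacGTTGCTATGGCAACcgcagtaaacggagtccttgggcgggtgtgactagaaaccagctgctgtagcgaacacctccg
The promoters of Cfap52 and Spag17, which had the smallest p in each direction, held none of these letters in this window.

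The libraries held 21972124 and 20273396 counts in mTOR Tg replicates 1 and 2 and 18146693 and 19018785 counts in WT replicates 1 and 2. Mtor itself had 38.9 and 61.8 normalised CPM (counts scaled to library sizes adjusted by TMM factors) in mTOR Tg replicates 1 and 2, against 56.8 and 56.7 in WT replicates 1 and 2; these counts do not tell transgene from endogenous transcripts. The libraries of the mTOR Tg pair stood further apart than those of WT: the chi-square statistic of the counts per degree of freedom was 206 within mTOR Tg and 13.6 within WT. Summed markers of type II cells (12 genes) were at 120377 and 159265 CPM on raw totals in mTOR Tg and 150697 and 128600 CPM in WT. Club cell markers (12 genes) were at 177467 and 64585 CPM in mTOR Tg and 93475 and 100925 CPM in WT. Most of this sum was Scgb1a1, at 138531 and 45192 CPM in mTOR Tg and 71140 and 75520 CPM in WT. Summed markers of airway secretory cells were thus abundant beside those of type II cells in every library. Ciliated cell markers (18 genes, 4 of which are among the 78) were at 6495 and 3909 CPM in mTOR Tg and 3893 and 4521 CPM in WT. Basal cell markers were at 1.96 and 2.96 CPM in mTOR Tg and 0.661 and 3.42 CPM in WT, and those of germ cells, in which many axoneme genes are also used, reached at most 0.421 CPM in any library. The leukocyte markers Cd3e and C1qb were at 0 throughout, and Ptprc, Cd79a and Marco reached at most 0.345 CPM. Cd68 was at 3.19 and 3.80 CPM in mTOR Tg and 4.68 and 2.63 CPM in WT. The sum of the leukocyte list, 1219 and 2871 CPM in mTOR Tg and 973 and 1237 CPM in WT, was almost all Lyz1. Type I cell markers (8 genes) were at 2204 and 2038 CPM in mTOR Tg and 1905 and 1811 CPM in WT. Endothelial markers (6 genes) were lower in both mTOR Tg libraries, at 67.4 and 57.5 CPM in mTOR Tg and 109 and 118 CPM in WT, and those of fibroblasts were at 31.9 and 61.9 CPM in mTOR Tg and 46.3 and 31.8 CPM in WT. In bulk RNA, fewer cells of a type and less RNA per cell cannot be told apart.

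Of all counts, the 78 genes held 0.409% in mTOR Tg replicate 1 (95% exact interval 0.406 to 0.411) and 0.302% in its replicate 2 (0.299 to 0.304), against 0.282% (0.280 to 0.285) and 0.328% (0.326 to 0.331) in the WT libraries. Only mTOR Tg replicate 1 lay outside the WT range, since mTOR Tg replicate 2 lay between the WT libraries. The intervals hold counting error alone, since reads that carry no molecular identifier may repeat a molecule. All 78 passed the filter on low counts, with 7 to 17459 counts per gene and library. Levels per kb of transcript, averaged over the 4 libraries, spanned 0.0686 to 187 normalised CPM per kb with a median of 9.11.

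No motile cilia gene passed the test between the genotypes, mTOR Tg against WT: 0 of 78 had an edgeR adjusted p under 0.05, as had 0 of 13306 genes tested (0%), with a smallest edgeR adjusted p of 0.865. At an unadjusted edgeR p under 0.05 there were 2 of 78, Cfap52 and Cfap53, beside 2.4% of all genes; limma-voom gave 2 and DESeq2 gave 7 of the 78. DESeq2 called 0 of the 78 after adjustment and 9 of 17700 genes (0.0508%). The 78 log2 fold changes ran from -0.50 to 0.84 with a median of 0.23 and were positive for 59 genes, against a median of 0.01 and 50.9% positive over all genes tested. The mTOR Tg pair was above the WT pair in both libraries for 14 of the 78, beside 17.6% of all genes, and below it for 3 (Cfap20, Spag16 and Spag17), beside 17%. The first share is close to the background and the second is smaller. With 2 libraries against 2, an exact permutation test of a single gene cannot go below p = 0.33.

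The positive median followed 1 library. Set against the mean of the WT libraries on the log2 CPM scale, the median of the 78 differences was 0.49 in mTOR Tg replicate 1 (range -1.48 to 1.34) and -0.03 in mTOR Tg replicate 2 (range -0.53 to 0.53), while the WT libraries stood at -0.07 and 0.07. Replicate 1 of mTOR Tg was above both WT libraries for 60 of 78 genes, against 44.7% of all genes, and below both for 11, against 43.5%. Replicate 2 of mTOR Tg was above both for 18, against 35.1%, and below both for 26, against 35.5%. In mTOR Tg replicate 1, 20 of 78 genes (25.6%) were over 2-fold above the WT mean, against 4.37% of all genes, and Spag9 alone was over 2-fold below it, against 8.67%. In mTOR Tg replicate 2 none of the 78 was over 2-fold above, against 1.24% of all genes, or over 2-fold below, against 1.3%. Cell type markers also differed in this library. Replicate 1 of mTOR Tg was the highest of the 4 libraries for 15 of 18 ciliated cell markers (4 of which are among the 78) and 12 of 12 club cell markers. It was the highest for 6 of 8 type I cell markers and 0 of 12 type II cell markers. Beside these, it was the highest for 5434 of all 13306 genes tested and for 2432 of 3300 other genes with transcripts under 2 kb. The part of the cell types in the differences of the motile cilia genes was not tested.

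**Figure D1:**
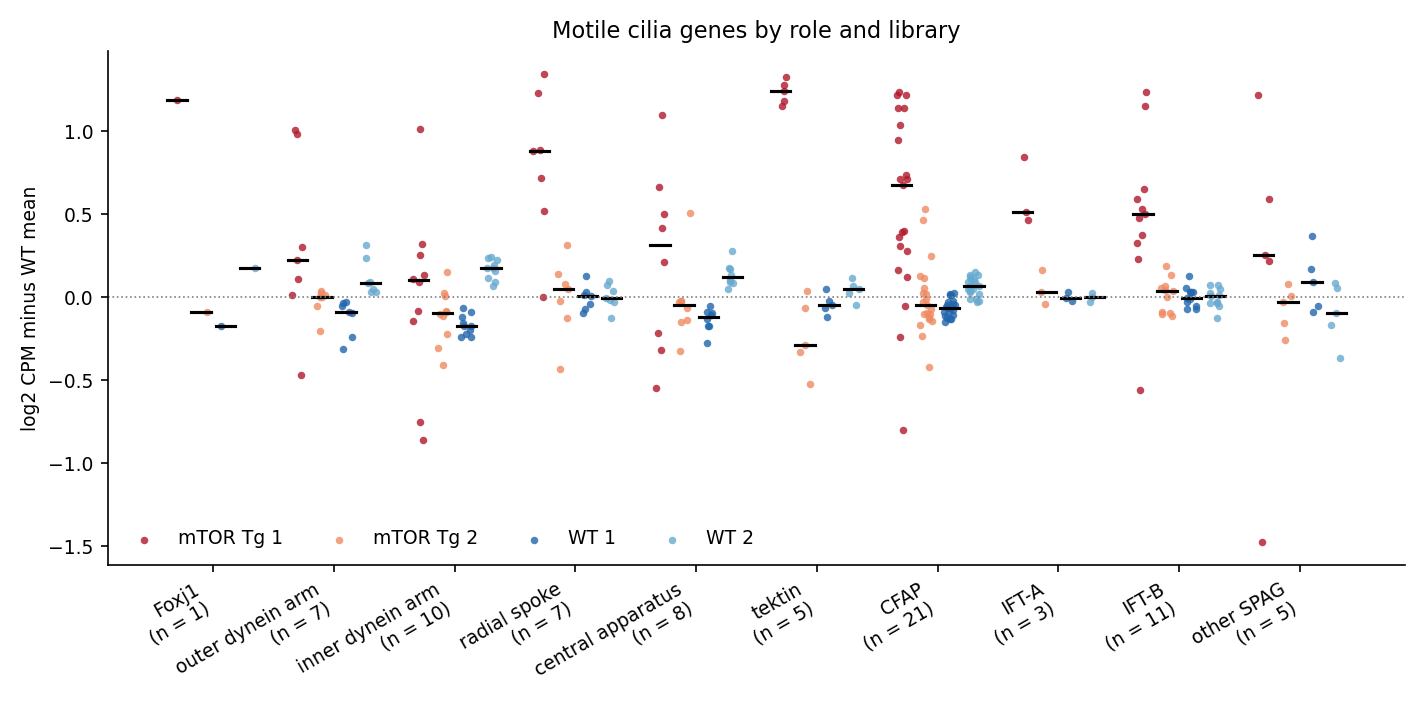
Difference of log2 CPM from the WT mean for each of the 78 motile cilia genes (points), by role and library; bars are medians over the genes of a role. In mTOR Tg replicate 1 the medians run from 0.10 for the inner dynein arm to 1.24 for the tektins, whereas those of mTOR Tg replicate 2 lie between -0.29 and 0.05.

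Foxj1, the forkhead factor of multiciliated cells, had the highest level per kb of the 78 (chr11:116330704-116335399, - strand, GRCm38). It had 17459 and 7376 counts in mTOR Tg replicates 1 and 2 and 6055 and 8369 in WT replicates 1 and 2, or 857 and 353 normalised CPM in mTOR Tg, against 332 and 423 in WT. Replicate 1 of mTOR Tg was thus 2.28-fold above the WT mean, and mTOR Tg replicate 2 lay within the WT range. The log2 fold change of 0.68 (SE 0.44) did not pass, with an edgeR adjusted p of 0.865.

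Of the outer dynein arm genes, Dnaic2, an intermediate chain that links the arm's heavy chains, had 88.7 and 44.2 normalised CPM in mTOR Tg replicates 1 and 2, against 42.5 and 45.7 in WT. Dnaic1, its partner chain, had 36.3 and 18.2 normalised CPM in mTOR Tg, against 17.8 and 18.7 in WT. In both, mTOR Tg replicate 1 was higher than WT, by 2.01-fold over the WT mean for Dnaic2 and 1.98-fold for Dnaic1, and the other 3 libraries were alike. Dnah5, the heavy chain found along the whole length of human airway cilia, had 58.1 and 82.1 normalised CPM in mTOR Tg, against 68.3 and 94.9 in WT, so that mTOR Tg replicate 1 was the lowest library. Dnah9, a heavy chain of their distal part, had 74.0 and 60.4 normalised CPM in mTOR Tg and 56.4 and 63.6 in WT, and Dnah11, one of their proximal part, 34.6 and 33.0 in mTOR Tg and 32.1 and 36.5 in WT. Dnah8 and Dnah17, the heavy chains of the sperm flagellum, were at 0.0686 and 0.112 normalised CPM per kb, against 2.42 to 4.85 for Dnah5, Dnah9 and Dnah11. The log2 fold changes of the 7 outer arm genes ran from -0.22 to 0.59, none passing; with an offset for transcript length they ran from 0.22 to 0.68, and the signs of Dnah5 (0.22), Dnah11 (0.47) and Dnah8 (0.51) turned.

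Among inner arm genes, Dnali1, a light intermediate chain, had 97.4 and 48.9 normalised CPM in mTOR Tg and 46.0 and 50.4 in WT. Dnah6, an inner arm heavy chain and the highest per kb of the 14 heavy chains at 9.16 normalised CPM per kb, had 104 and 127 normalised CPM in mTOR Tg and 98.2 and 134 in WT, with both mTOR Tg values inside the WT range. Dnah3 had 32.0 and 54.9 normalised CPM in mTOR Tg and 49.3 and 68.9 in WT, and Dnah12 had 24.0 and 40.6 in mTOR Tg and 35.9 and 45.7 in WT. Both were lowest in mTOR Tg replicate 1, with log2 fold changes of -0.44 (SE 0.33) for Dnah3 and -0.34 (SE 0.31) for Dnah12 and edgeR adjusted p of 0.865. Dnah10 had 93.9 and 70.05 normalised CPM in mTOR Tg and 65.6 and 85.9 in WT, and Dnah1 had 35.1 and 25.3 in mTOR Tg and 26.4 and 32.9 in WT, so both were highest in mTOR Tg replicate 1. Of the 9 inner arm heavy chains, mTOR Tg replicate 1 was above both WT libraries for 3 (Dnah1, Dnah10 and Dnah7c) and below both for 2 (Dnah3 and Dnah12). Dnah7a, Dnah7b and Dnah7c are near-identical copies, so the split of their counts is uncertain.

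The 14 heavy chains also separated the WT libraries. WT replicate 2 was above WT replicate 1 for 14 of the 14, and for 60 of all 78 genes, against 49.8% of all genes tested. Long transcripts in general went the same way, with WT replicate 2 higher for 75.7% of the 720 other genes over 8 kb. The summed level of the 14 heavy chains was 485 and 567 CPM on raw totals in mTOR Tg replicates 1 and 2 and 491 and 659 CPM in WT replicates 1 and 2. On raw totals the first of the mTOR Tg sums thus lay just below the WT range and the second inside it. On normalised log2 CPM, their median difference from the WT mean was 0.10 in mTOR Tg replicate 1 and -0.08 in mTOR Tg replicate 2. In mTOR Tg replicate 1, 5 of the 14 were above both WT libraries, against 44.7% of all genes. Another 3 were below both, against 43.5%.

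Radial spoke genes, which carry signals between the central apparatus and the dynein arms, had a median difference of 0.88 in mTOR Tg replicate 1 and 0.05 in mTOR Tg replicate 2. Rsph1, a spoke head protein, had the largest log2 fold change of the 78, 0.84 (SE 0.43, edgeR adjusted p 0.865). It had 172 and 70.1 normalised CPM in mTOR Tg and 68.1 and 67.5 in WT. The groups did not overlap for Rsph1, yet mTOR Tg replicate 2 exceeded the higher WT library by little, while mTOR Tg replicate 1 was 2.54-fold above the WT mean. Rsph9, another spoke head protein, had 55.4 and 24.8 normalised CPM in mTOR Tg and 22 and 25.1 in WT. Rsph3b, a spoke protein, had 51.7 and 34.9 normalised CPM in mTOR Tg and 26.7 and 29.5 in WT, so that both mTOR Tg libraries were higher (log2 fold change 0.62, SE 0.26, edgeR adjusted p 0.865); its near-identical copy Rsph3a had 71.9 and 45.9 in mTOR Tg and 50.7 and 49.6 in WT, and reads shared by the copies make both uncertain. Rsph4a, also of the spoke head, had 51.8 and 57.0 normalised CPM in mTOR Tg and 52.8 and 50.6 in WT and was the radial spoke gene nearest to no difference in mTOR Tg replicate 1.

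Genes of the central apparatus lay on both sides of WT. Spag17, a central pair protein (chr3:99885406-100143322, + strand), was lower in both mTOR Tg libraries, with 19.7 and 23.1 normalised CPM in mTOR Tg and 27.2 and 30.7 in WT. Its log2 fold change of -0.44 (SE 0.21) had the smallest p of the genes lower in mTOR Tg and did not pass (edgeR adjusted p 0.865). Spag16, likewise of the central pair, had 26.4 and 28 normalised CPM in mTOR Tg and 28.8 and 32.8 in WT. Cfap221, another central pair protein, was higher in both mTOR Tg libraries, with 9.57 and 6.32 normalised CPM in mTOR Tg and 3.62 and 5.36 in WT (log2 fold change 0.82, SE 0.34, edgeR adjusted p 0.865). Spag6l, the highest of this group per kb, had 52.9 and 36.7 normalised CPM in mTOR Tg and 36.0 and 38.7 in WT; its near copy Spag6 had 7 counts in all. Hydin, a central pair gene that the naming rule did not take, had 44.4 and 55.5 normalised CPM in mTOR Tg and 50.9 and 63.3 in WT.

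**Figure D2:**
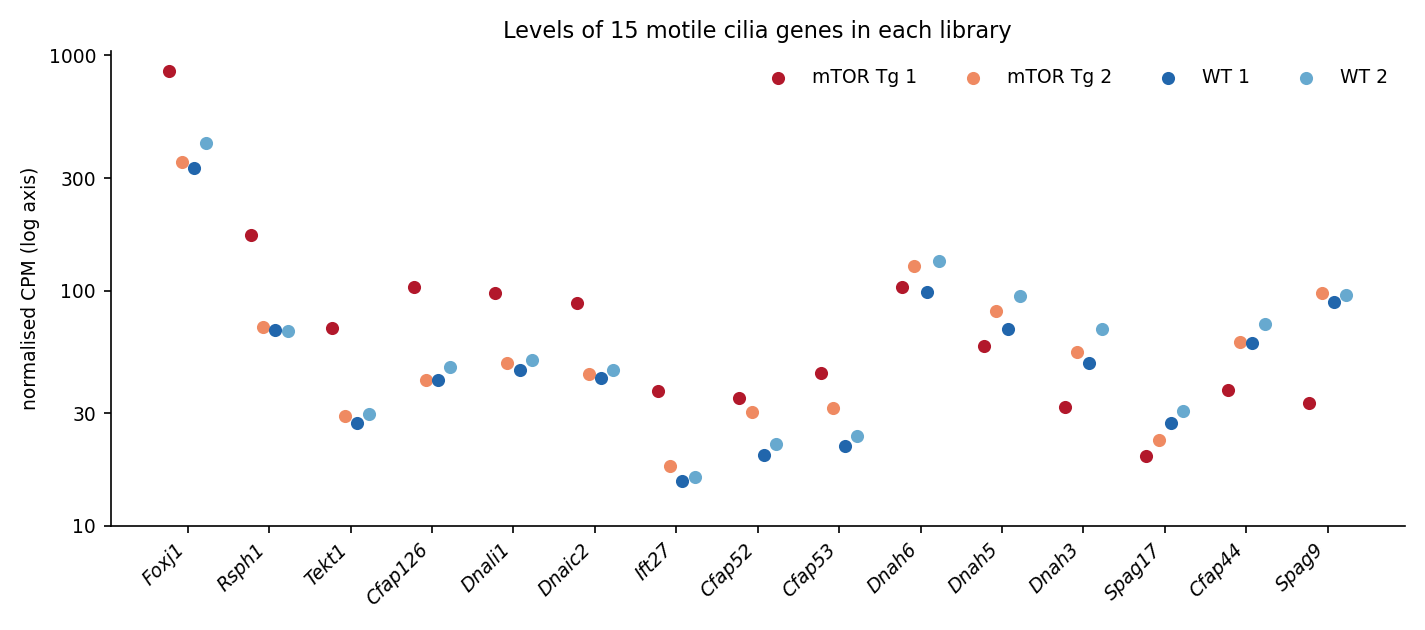
Normalised CPM (log axis) of 15 motile cilia genes in each library, 1 point per library. Foxj1, Rsph1, Tekt1, Cfap126, Dnali1, Dnaic2 and Ift27 are over 2-fold above the WT mean in mTOR Tg replicate 1, while their mTOR Tg replicate 2 values lie between 0.934-fold and 1.14-fold of it. Rsph1, Ift27, Cfap52 and Cfap53 are above both WT libraries in both mTOR Tg libraries, and Spag9 is low in mTOR Tg replicate 1 alone, with 33.3 normalised CPM there.

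The 5 tektins, which lie along the wall of the doublet microtubules, had like values in mTOR Tg replicate 1. All 5 were over 2-fold above the WT mean in mTOR Tg replicate 1, with differences of 1.15 to 1.33 on the log2 scale, while mTOR Tg replicate 2 ranged from -0.53 to 0.04. Tekt1 had 69.3 and 29.3 normalised CPM in mTOR Tg and 27.2 and 29.8 in WT. Tekt4 had 48.6 and 19.6 in mTOR Tg and 20.1 and 20.8 in WT. Tekt2 had 49.5 and 17.3 normalised CPM in mTOR Tg and 21.1 and 22.5 in WT, and 25.7% of its exonic length overlaps another gene on the other strand. Tekt5 rested on 30 and 7 counts in mTOR Tg and 10 in each WT library. No tektin separated the groups.

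The 21 other CFAP genes included the only members with an unadjusted edgeR p under 0.05. Cfap52 (chr11:67924806-67965651, - strand), a protein of the inside of the doublet microtubules, had 34.7 and 30.5 normalised CPM in mTOR Tg and 20.04 and 22.3 in WT. Cfap53 (chr18:74283090-74359986, + strand), also found inside the doublets and needed for left-right patterning, had 44.4 and 31.7 normalised CPM in mTOR Tg and 21.9 and 24.1 in WT. In both genes each mTOR Tg library stood above both WT libraries, by 1.64-fold and 1.44-fold over the WT mean for Cfap52 and by 1.93-fold and 1.38-fold for Cfap53. The log2 fold changes were 0.62 (SE 0.20) for Cfap52 and 0.73 (SE 0.24) for Cfap53, each with an edgeR adjusted p of 0.865.

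Cfap77 had 46.6 and 26.9 normalised CPM in mTOR Tg and 21.7 and 23.6 in WT. Cfap126, known as Flattop and linked to basal body positioning, had the highest level per kb of the CFAP genes, with 104 and 41.6 normalised CPM in mTOR Tg and 41.8 and 47.4 in WT. Cfap36, the next per kb, had 46.6 and 38.2 normalised CPM in mTOR Tg and 36.6 and 38.6 in WT. At the other end, Cfap44, a protein of the tether of an inner arm dynein, had 37.6 and 60.4 normalised CPM in mTOR Tg and 59.9 and 72.1 in WT. Over the 21 genes the median difference was 0.68 in mTOR Tg replicate 1 and -0.05 in mTOR Tg replicate 2.

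IFT genes had smaller medians than tektins or radial spoke genes. In mTOR Tg replicate 1 the median difference was 0.50 for the 11 IFT-B genes and 0.51 for the 3 IFT-A genes, and in mTOR Tg replicate 2 it was 0.04 and 0.03 for the same groups. Ift27, a small GTPase of IFT-B, had 37.2 and 18 normalised CPM in mTOR Tg and 15.4 and 16 in WT (log2 fold change 0.81, SE 0.37, edgeR adjusted p 0.865). Ift20, which also sits at the Golgi and was the highest IFT gene per kb, had 94.4 and 67.6 normalised CPM in mTOR Tg and 74.1 and 71.2 in WT. Ift80, an IFT-B protein, was the one IFT gene with a negative log2 fold change, with 25.5 and 38.7 normalised CPM in mTOR Tg and 38.4 and 36.6 in WT.

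Of the IFT-A proteins, Ift43 had 69.3 and 39.4 normalised CPM in mTOR Tg and 38.5 and 38.6 in WT. Ift122 had 44.5 and 31.3 normalised CPM in mTOR Tg and 32.8 and 31.5 in WT. Both were highest in mTOR Tg replicate 1, and neither mTOR Tg replicate 2 value was far from WT.

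The 5 remaining SPAG genes are sperm-associated antigens by name and are not all ciliary. Spag9, a scaffold of JNK signalling and of vesicle motors, had the lowest value of the 78 in mTOR Tg replicate 1, with 33.3 and 97.8 normalised CPM in mTOR Tg and 89.4 and 96.1 in WT (log2 fold change -0.50, SE 0.49, edgeR adjusted p 0.865). Spag7 had 61.0 and 45.9 normalised CPM in mTOR Tg and 57.6 and 45.4 in WT. Their summed level, 116 and 165 CPM on raw totals in mTOR Tg and 166 and 166 CPM in WT, was the one role sum that was lowest in mTOR Tg replicate 1. By gene, 4 of the 5 were above both WT libraries in mTOR Tg replicate 1, against 44.7% of all genes. Spag9 alone was below both, against 43.5%, and the median difference of the 5 was 0.25.

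The roles differ in transcript length, and so did the values in mTOR Tg replicate 1. Dynein heavy chain transcripts are over 8 kb long, while those of tektins are under 2 kb (longest protein-coding transcript of a gene in GENCODE M21). Across the 78 genes, the difference of mTOR Tg replicate 1 from the WT mean had a Pearson r of -0.65 with log2 length, and across 13059 other genes it was -0.53; genes within a library share its depth and preparation, so these are descriptions. For mTOR Tg replicate 2 the r was -0.13 for the 78 and -0.01 for the other genes. For WT replicate 2 minus WT replicate 1 it was 0.48 for the 78 and 0.17 for the others.

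At like length the motile cilia genes lay above other genes in mTOR Tg replicate 1. Under 2 kb their median difference was 1.15 (20 genes), against 0.44 for 3300 other genes. Between 2 and 4 kb it was 0.59 (28 genes) against 0.06 for 5285 others, and between 4 and 8 kb 0.25 (14 genes) against -0.41 for 3754 others. Over 8 kb it was 0.10 (16 genes), against -0.85 for 720 others. The cilia genes were thus higher in every length class, by 0.54 to 0.95 on the log2 scale.

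**Figure D3:**
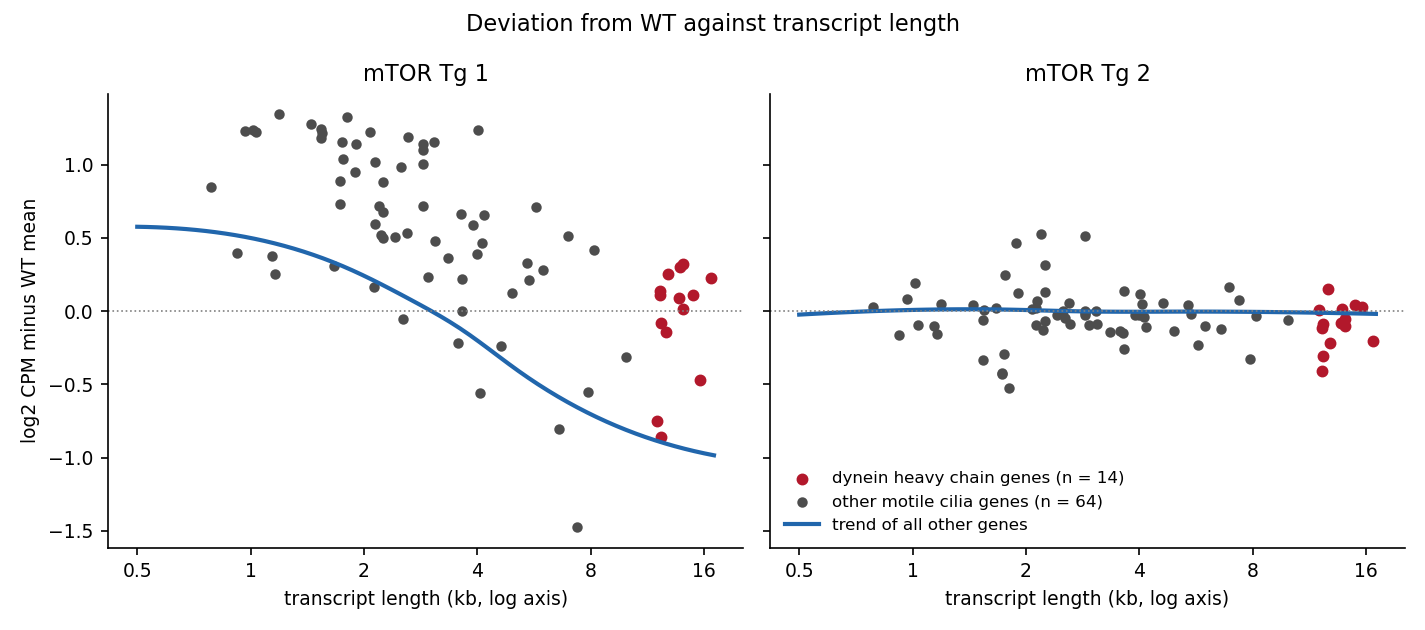
Difference of log2 CPM from the WT mean against transcript length (kb, log axis) in mTOR Tg replicate 1 (left) and mTOR Tg replicate 2 (right); points are the 78 motile cilia genes and the line is a spline through the other genes. In mTOR Tg replicate 1 the 14 heavy chains lie on or above the line, which falls with length, and in mTOR Tg replicate 2 the line stays near 0 while the points run from -0.53 to 0.53.

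Measured from the spline of other genes at the same length, the median of the 78 was 0.73 in mTOR Tg replicate 1 and -0.03 in mTOR Tg replicate 2. The distance was positive for 68 of 78 genes in mTOR Tg replicate 1 and for 31 in mTOR Tg replicate 2. On this scale the heavy chains were no longer low: their median in mTOR Tg replicate 1 was 1.01, with 14 of 14 positive, against 0.68 for the other 64 genes. The tektins stood at 0.88, radial spoke genes and the 3 IFT-A genes at 0.69, and central apparatus genes at 0.58. CFAP genes stood at 0.53, IFT-B genes at 0.44 and the other SPAG genes at 0.35. Cfap57 (1.44), Dnah10 (1.26) and Dnah9 (1.24) were the highest, and Spag9 (-0.82), Ift80 (-0.34) and Cfap44 (-0.21) the lowest. Of the 18 genes with an X-box match, 6 (33.3%) were over 2-fold above the WT mean in mTOR Tg replicate 1, against 12 (26.7%) of the other 45 with a promoter.

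**Figure D4:**
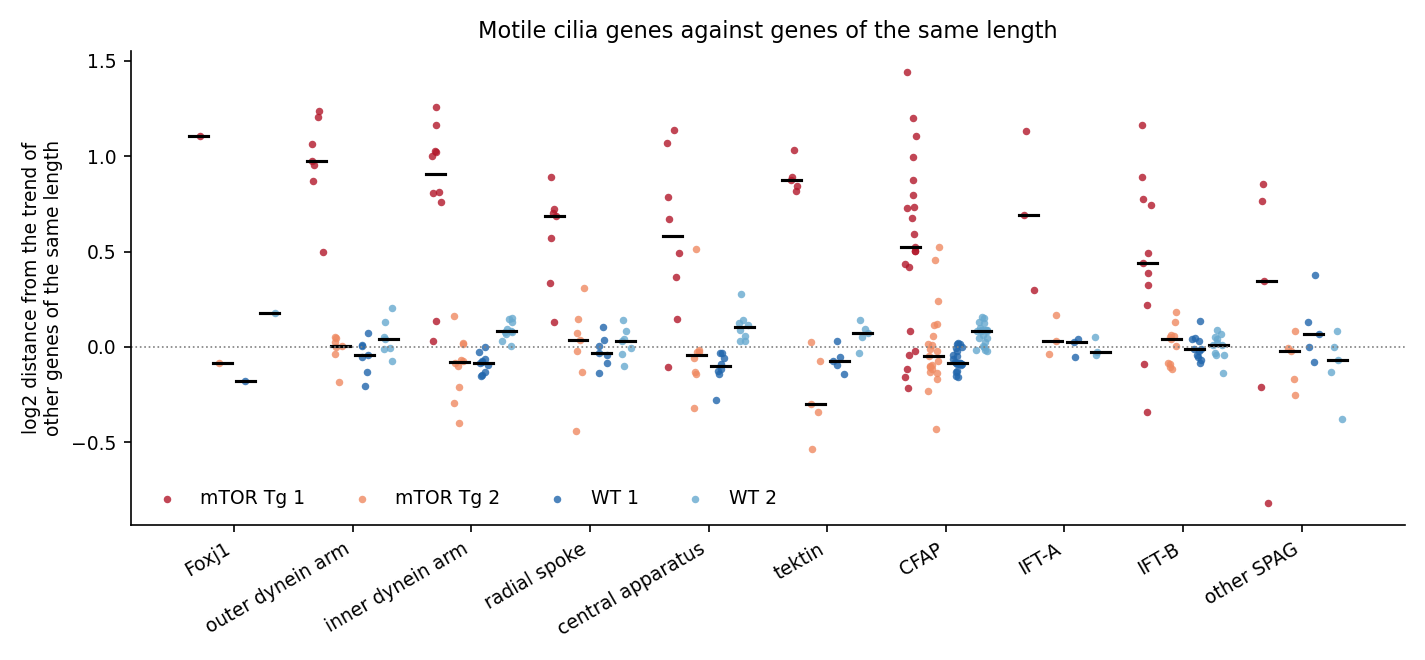
Log2 distance of each motile cilia gene from the trend of other genes of the same length, by role and library; bars are medians over the genes of a role. The dynein arm genes, at 0.98 (outer) and 0.91 (inner) in mTOR Tg replicate 1, stand as high as the tektins at 0.88.

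Other genes of the ciliary pathway, listed by function and not taken by the naming rule, gave the same split between libraries. Of 75 tested, 0 passed and 1 had an unadjusted edgeR p under 0.05, beside 2.4% of all genes. Both mTOR Tg libraries exceeded both WT libraries for 23 of the 75, beside 17.6% of all genes, and were below them for 8, beside 17%. The median log2 fold change of the 75 was 0.21. Without 20 genes of the primary cilium and the BBSome, which cells lacking motile cilia also use, the other 55 had medians of 0.60 in mTOR Tg replicate 1 and 0.01 in mTOR Tg replicate 2. Outer arm docking and nexin-dynein regulatory complex genes (13 tested) had medians of 0.98 in mTOR Tg replicate 1 and 0.06 in mTOR Tg replicate 2, with 7 of 13 above WT in both mTOR Tg libraries, beside 17.6% of all genes. Gas8, a subunit of that regulatory complex, had 74.1 and 36.1 normalised CPM in mTOR Tg and 31.6 and 33.5 in WT. Ccdc151, a docking factor, had 40.7 and 19.8 normalised CPM in mTOR Tg and 16.6 and 18.7 in WT.

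Dynein assembly factors (11 tested) had medians of 0.52 and 0.01 in mTOR Tg replicates 1 and 2. Dnaaf1, a cytoplasmic assembly factor, had 48.3 and 22.8 normalised CPM in mTOR Tg and 19.5 and 20.9 in WT. Wdr63, an inner arm intermediate chain, had 54.4 and 34.4 normalised CPM in mTOR Tg and 27.4 and 27.6 in WT and was the one of the 75 with an unadjusted edgeR p under 0.05 (log2 fold change 0.69, SE 0.27, edgeR adjusted p 0.865).

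Of 15 regulators of multiciliogenesis tested, 1 was above WT in both mTOR Tg libraries, beside 17.6% of all genes, and 3 were below, beside 17%. Rfx2, an X-box binding factor, had 41.1 and 34.1 normalised CPM in mTOR Tg and 26.0 and 28.1 in WT. Gmnc, which commits cells to the multiciliated fate, had 7.02 and 5.08 normalised CPM in mTOR Tg and 8.29 and 8.95 in WT. Neither passed (edgeR adjusted p of 0.865 for each). In the primary cilium list, Dync2h1, the heavy chain of the motor that returns IFT particles, had 18.6 and 33.4 normalised CPM in mTOR Tg and 34.9 and 36.9 in WT.

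Which mTOR Tg library was kept decided the calls. Without mTOR Tg replicate 1, 0 of 78 genes passed in edgeR and 5 had an unadjusted p under 0.05, although 2.56% of all genes passed; the median log2 fold change was -0.04, and Cfap52 came nearest with 0.53 and an edgeR adjusted p of 0.0601. Without mTOR Tg replicate 2, 54 of 78 passed (69.2%), beside 47.2% of all genes: 47 were higher, beside 22.6%, and 7 were lower, beside 24.6%, with a median of 0.49. In these fits the lone library is assumed to vary like the WT pair. Leaving out WT replicate 1 or WT replicate 2 left 0 of 78 passing, beside 0.0451% and 0.0902% of all genes, and 0 of 78 had an unadjusted edgeR p under 0.05 in either.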

How the data were processed

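The values used were whole-number counts per gene symbol, deposited by the authors in a single table for the 4 libraries; no other sample columns were present (0). The submitters' processing notes name HISAT2, edgeR and build mm10; no label or file header names the counting program, annotation or strand setting, so overlapping genes on opposite strands cannot be told apart. Columns were matched to samples by the names in the labels. Depth sets a floor of 3 counts at 0.137 to 0.165 CPM per library.

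Counts were tested with edgeR 4.0.16 in R 4.3.3 (quasi-likelihood test, genotype only, filterByExpr with a minimum count of 10, TMM factors of 0.928 to 1.04, Benjamini-Hochberg adjustment over all 13306 genes, threshold 0.05), and only the motile cilia rows are given. The code was tested on simulated data. Log2 CPM used a prior count of 2. Lengths came from GENCODE M21 (GRCm38, the assembly called mm10), and the length trend was a natural spline with 5 degrees of freedom fitted without the 78 genes. Exon overlap with another gene was found for 25 of the 78 and was over 20% for Tekt2 alone. Promoters came from RefSeq.

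The members and lists were chosen with earlier results of these data known. Values in every library were given for Foxj1, the 2 genes of each role highest per kb, the 5 of smallest p among those higher and those lower in mTOR Tg, the 5 highest and 5 lowest in mTOR Tg replicate 1, and up to 2 other genes of each pathway list; further genes were chosen after their values were seen. Alternatives were DESeq2 1.42.0, limma-voom (limma 3.58.1), other scaling factors, filters of none or 50 counts, a threshold of 0.1, a length offset, a replicate block, and leaving out each library.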

Additional observations from a re-analysis of the deposited data

How the results depend on the processing

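No motile cilia gene passed under DESeq2, limma-voom, library size only, DESeq2 or upper quartile factors, no filter or a minimum of 50 counts, an adjusted threshold of 0.1, the length offset or the replicate block. Leaving out 1 library gave 0 to 54 calls, medians of -0.043 to 0.49 and 34 to 71 genes whose groups did not overlap, against 17 with all libraries; without a library, 53.1% to 88.2% of all genes did not overlap. Same-numbered libraries were hardly related (r of 0.07 across genes), so the numbers were not taken to pair samples; with a replicate block edgeR called 38 genes of the whole table and 0 of the 78, of which 12 had an unadjusted p under 0.05. Of 31 named genes, 0 passed in the fits with all libraries. Some of the 31 were chosen by their deviation in mTOR Tg replicate 1. A count of those passing without mTOR Tg replicate 2 would partly follow from that choice. Signs turned with the length offset for 17 of the 78 genes, 12 of them to positive, and among the genes chosen by rule for Ift20 (-0.10), Cfap36 (-0.0069), Spag7 (-0.19), Dnah6 (0.43) and Dnah12 (0.028), with library size only for Spag7 (-0.016), and for Dnah6 with upper quartile factors (0.021), limma-voom (0.0050) and the replicate block (0.0048). Over the fits that left out 1 library, log2 fold changes that turned sign ran from -0.10 to 1.18 for Foxj1, -0.33 to 1.18 for Tekt2, -0.064 to 1.25 for Tekt4, -0.64 to 1.47 for Tekt5, -0.10 to 0.38 for Ift20, -0.56 to 0.045 for Ift80, -0.042 to 0.47 for Ift122, -0.10 to 1.22 for Cfap126, -0.16 to 0.25 for Spag7, -1.48 to 0.076 for Spag9, -0.026 to 0.50 for Spag6l, -0.21 to 0.24 for Dnah6 and -0.0028 to 0.99 for Dnaic1. The cause of these changes was not tested. With a minimum of 50 counts 73 of the 78 were tested, and Tekt5 had no value. Depth limits the genes of few counts, such as Tekt5, Tekt3, Dnah8 and Dnah17.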
